A study of Rattus norvegicus with 31 samples.

Results

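The genes described here build and take apart the matrix around testis cells: the matrix metalloproteinases (Mmp), their tissue inhibitors (Timp), the Adamts proteases with the related Adamtsl proteins, and the lysyl oxidases (Lox). A gene was included where its symbol in the platform annotation was one of these stems, alone or followed by a number or by l and a number. This gave 58 probe sets of 41 genes, out of 14217 genes with 1 symbol on the array: 17 Mmp, 4 Timp, 12 Adamts, 4 Adamtsl and 4 Lox genes. Each gene was represented by its probe set of highest mean over the 31 arrays.

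The samples were total RNA of whole testes of LBNF1 rats 25 to 27 weeks old, and all 3 groups had received 6 Gy of radiation to the lower abdomen. The 6 arrays called estradiol here are of rats given a GnRH antagonist, an androgen receptor antagonist and estradiol. Their labels also name FSH supplementation, while the only compound they add is estradiol. The 11 ablation arrays are of rats given a GnRH antagonist together with flutamide, which blocks the androgen receptor, and the 14 sham arrays of rats with sham treatment. Of the sham arrays, 10 are described in the labels as control testes and 4 as irradiated testes, although all 14 are titled irradiated. The 25 ablation and sham arrays come from an earlier series, so estradiol treatment and the newer deposit cannot be told apart. Each array is labelled a biological replicate, and no pooling of animals is stated in the labels. In RNA of whole testis, fewer cells of a type and less RNA per cell cannot be told apart.

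Matrix metalloproteinases are zinc-dependent enzymes made as inactive proenzymes, and together they cut collagens, gelatins, proteoglycans and elastin. Timp proteins bind the active site of these enzymes and block it, and Timp3 also blocks several Adamts and Adam proteases. Adamts proteases cut proteoglycans such as versican and aggrecan or process procollagens, while Adamtsl proteins lack the protease domain and associate with microfibrils. Lysyl oxidases oxidise lysines of collagen and elastin so that the fibres become cross-linked. In the testis this matrix includes the basement membrane of the seminiferous tubules and the interstitial tissue between them, where the Leydig cells lie.

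The sequences upstream of transcription starts are shown for 3 inhibitors and for Adamtsl4, all called below, and for Mmp13 as one of the secreted proteases that stayed near background. They are the 250 bases before the start, 5′ to 3′ on the gene's strand, from RefSeq on build GRCr8. Capitals mark matches, on either strand, to the AP-1 motif TGANTCA. They also mark TGAGTAA, a close variant of it, the GC box GGGCGG and the TATA box TATAAA. No 2 of these motifs overlap in the windows shown.
Timp1, chrX:3771123-3771372, minus strand: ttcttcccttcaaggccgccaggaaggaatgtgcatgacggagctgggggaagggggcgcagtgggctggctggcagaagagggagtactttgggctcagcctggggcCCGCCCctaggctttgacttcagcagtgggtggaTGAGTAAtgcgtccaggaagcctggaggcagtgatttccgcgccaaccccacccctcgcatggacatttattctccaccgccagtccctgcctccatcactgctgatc
Timp2, chr10:104089215-104089464, minus strand: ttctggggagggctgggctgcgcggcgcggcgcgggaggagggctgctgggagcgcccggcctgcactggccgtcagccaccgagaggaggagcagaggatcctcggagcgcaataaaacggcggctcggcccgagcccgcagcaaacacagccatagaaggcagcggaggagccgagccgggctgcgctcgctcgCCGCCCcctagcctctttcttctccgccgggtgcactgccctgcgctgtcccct
Timp3, chr7:19459559-19459808, minus strand: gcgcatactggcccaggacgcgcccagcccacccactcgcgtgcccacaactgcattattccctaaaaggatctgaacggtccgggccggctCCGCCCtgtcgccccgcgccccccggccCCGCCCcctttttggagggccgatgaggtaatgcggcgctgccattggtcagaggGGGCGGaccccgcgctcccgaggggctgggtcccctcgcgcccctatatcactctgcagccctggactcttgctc
Adamtsl4, chr2:185935797-185936046, minus strand: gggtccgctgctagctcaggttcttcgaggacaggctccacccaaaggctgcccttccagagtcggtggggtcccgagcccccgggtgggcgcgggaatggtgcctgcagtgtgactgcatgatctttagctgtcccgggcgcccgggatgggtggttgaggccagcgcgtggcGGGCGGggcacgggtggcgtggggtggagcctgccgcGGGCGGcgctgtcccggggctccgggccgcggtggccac
Mmp13, chr8:12782579-12782828, plus strand: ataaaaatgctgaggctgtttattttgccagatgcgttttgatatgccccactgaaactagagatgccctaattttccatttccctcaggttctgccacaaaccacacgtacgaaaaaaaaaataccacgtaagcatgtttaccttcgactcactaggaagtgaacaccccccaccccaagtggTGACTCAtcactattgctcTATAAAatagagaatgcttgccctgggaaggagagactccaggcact

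The promoters of Timp1, Timp2, Timp3 and Adamtsl4 were rich in G and C, with 61.2%, 72%, 69.6% and 73.2%. Mmp13 had 44.4%, and the median was 52.4% over 24206 promoters of this length. Timp1 held TGAGTAA with its first base 108 bases before the start, and Mmp13 held TGACTCA and TATAAA with their first bases 66 and 47 bases before it. A window could be assigned to 27 of the 41 members. The AP-1 motif TGANTCA was found in 5 of these 27 windows, namely Mmp3, Mmp7, Mmp10, Mmp12 and Mmp13, and in 6.35% of all promoters. None of these 5 passed the filter on low values in the testis arrays, and 13 of all 41 members did not pass it. Any link between motif and signal was not tested. TGAGTAA was found in 2 windows, of Timp1 and Mmp3, and in 2.17% of all promoters. The GC box was found in 13 windows and in 33.6% of all promoters, and the TATA box in 10 windows and in 13.3%. The full palindromic estrogen response element was in 0 member windows and 0.0207% of all promoters, and its half-site GGTCA in 8 windows and 35.1%. The full palindromic androgen response element was in 0 member windows and 0% of all promoters, and its half-site AGAACA in 5 windows and 16.7%. The matches describe letters in these windows and no binding was measured.

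Values are given on the deposited scale, read as log2 of MAS5 signal, on which most probe sets lie below 0. The filter level is the 40th percentile of all probe sets on an array, which lay between -1.93 and -1.75, and a probe set was tested if at least 6 arrays exceeded it. Of the 41 members, 28 were tested and 13 were not. The mean over all arrays lay below the filter level in 19 members (46.3%), against 27.9% of all genes. By family this was 11 of 17 Mmp genes, 4 of 12 Adamts genes, 1 of 4 Adamtsl genes, 3 of 4 Lox genes and 0 of 4 Timp genes. Above the filter level on all 31 arrays were 16 members: Mmp2, Mmp14, Mmp17, Mmp23, Mmp24, Timp1, Timp2, Timp3, Adamts1, Adamts5, Adamts7, Adamts9, Adamts10, Adamtsl1, Adamtsl4 and Lox. Of these, Mmp14, Mmp17 and Mmp24 are among the Mmp proteins anchored in the cell membrane.

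**Figure D1:**
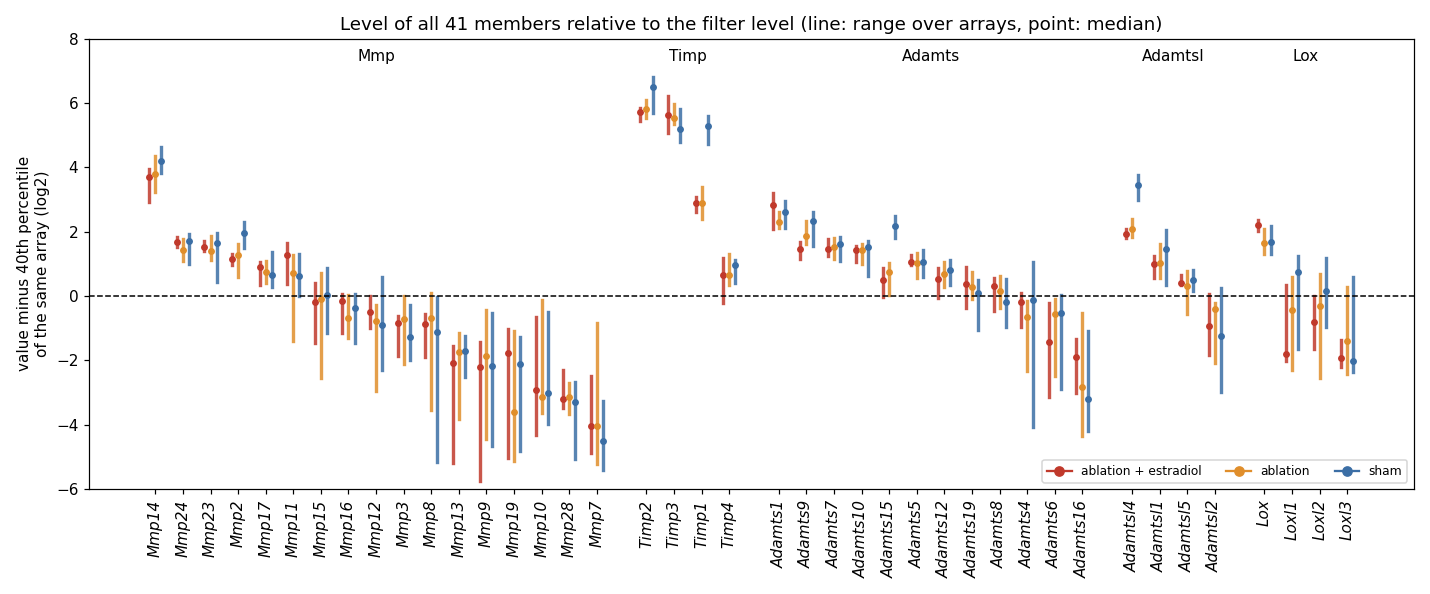
Each of the 41 members is drawn by family, with its value minus the 40th percentile of the same array (log2) on the vertical axis. Lines span the lowest to the highest array of a group, points are medians, and the dashed line at 0 is the filter level. From Mmp12 rightwards in the Mmp block every group median lies below the line, and Timp1, Timp2 and Timp3 lie well above it in every group.

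The 13 members that were not tested included the collagenases Mmp8 and Mmp13, the stromelysins Mmp3 and Mmp10, the matrilysin Mmp7, the macrophage elastase Mmp12 and the gelatinase Mmp9. The others were Mmp19, Mmp28, Adamts6, Adamts16, Adamtsl2 and Loxl3. They exceeded the filter level on 0 to 4 arrays each, and 7 of them on none. Mmp9 ranged from -7.65 to -3.28 in the estradiol arrays, from -6.33 to -2.34 in the ablation arrays and from -6.53 to -2.37 in the sham arrays. Every array was below the filter level, so these values have no reliable order. Among the 28 members tested, 6 had a mean below the filter level: Mmp15, Mmp16, Adamts4, Adamts8, Loxl1 and Loxl2. Adamts2, which was to be described, had no probe set named on the platform.

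Ablation against sham asks what loss of gonadotropin and androgen action did to these genes in the irradiated testis. Timp1, Adamts15, Adamtsl4, Loxl1, Mmp2, Timp2, Mmp14 and Adamts9 were lower in ablation than in sham, and Timp3 was higher. Across the families, 8 of the 28 members tested were called lower and 1 higher, against 12.8% of 11379 genes called lower and 9.24% called higher. The members' shares were 28.6% lower and 3.57% higher. Of the 8 called lower, Loxl1 passed the filter only through sham, with 3 of 11 ablation and 13 of 14 sham arrays above the level. The median log2 change was -0.19 over the members tested and -0.09 over all 41 members without the filter, against 0.00045 over all genes tested. A call is an adjusted p under 0.05 in limma, with p-values adjusted by Benjamini and Hochberg over all 21269 probe sets kept.

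Among the inhibitors, Timp1, a secreted inhibitor of most matrix metalloproteinases, had values of 0.65 to 1.48 in the ablation arrays (median 1.05) and 2.86 to 3.69 in the sham arrays (median 3.43). Every ablation array lay below every sham array. It fell 4.95-fold, a log2 change of -2.31 ± 0.10 (SE, 11 against 14 arrays, limma adjusted p = 2.27e-20). Timp2, which both inhibits Mmp2 and helps Mmp14 to activate it, ranged from 3.76 to 4.20 in ablation arrays (median 3.94) and from 3.92 to 4.90 in sham arrays (median 4.65). It fell by 0.62 ± 0.09 (1.54-fold, adjusted p = 3.41e-06), and 5 of 11 ablation arrays lay below the lowest sham array. The second Timp2 probe set, also well above the filter level, was not called (-0.37, adjusted p = 0.134).

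Timp3, the inhibitor that is held in the matrix, moved the other way. It ranged from 3.53 to 4.09 in ablation arrays (median 3.68) and from 2.96 to 3.90 in sham arrays (median 3.38). All 11 ablation arrays lay above the sham median, 2 of them above the highest sham array, and the log2 change was 0.38 ± 0.11 (1.3-fold higher, adjusted p = 0.0145). Its 3 other probe sets were not called, with log2 changes of -0.14, 0.06 and 0.17, and the mean of all 4 probe sets had a change of 0.12 (adjusted p = 0.467). The call was also lost when just the 4 shams with the irradiated description were used (0.38, adjusted p = 0.149). It was lost again without the component extremes, that is, the lowest and highest array of each group on the first principal component (0.35, adjusted p = 0.074). Timp4, an inhibitor best known from heart and other muscle, averaged -1.14 ± 0.29 in ablation arrays and -0.95 ± 0.21 in sham arrays (SD), and its change of -0.18 was not called (adjusted p = 0.331).

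**Figure D2:**
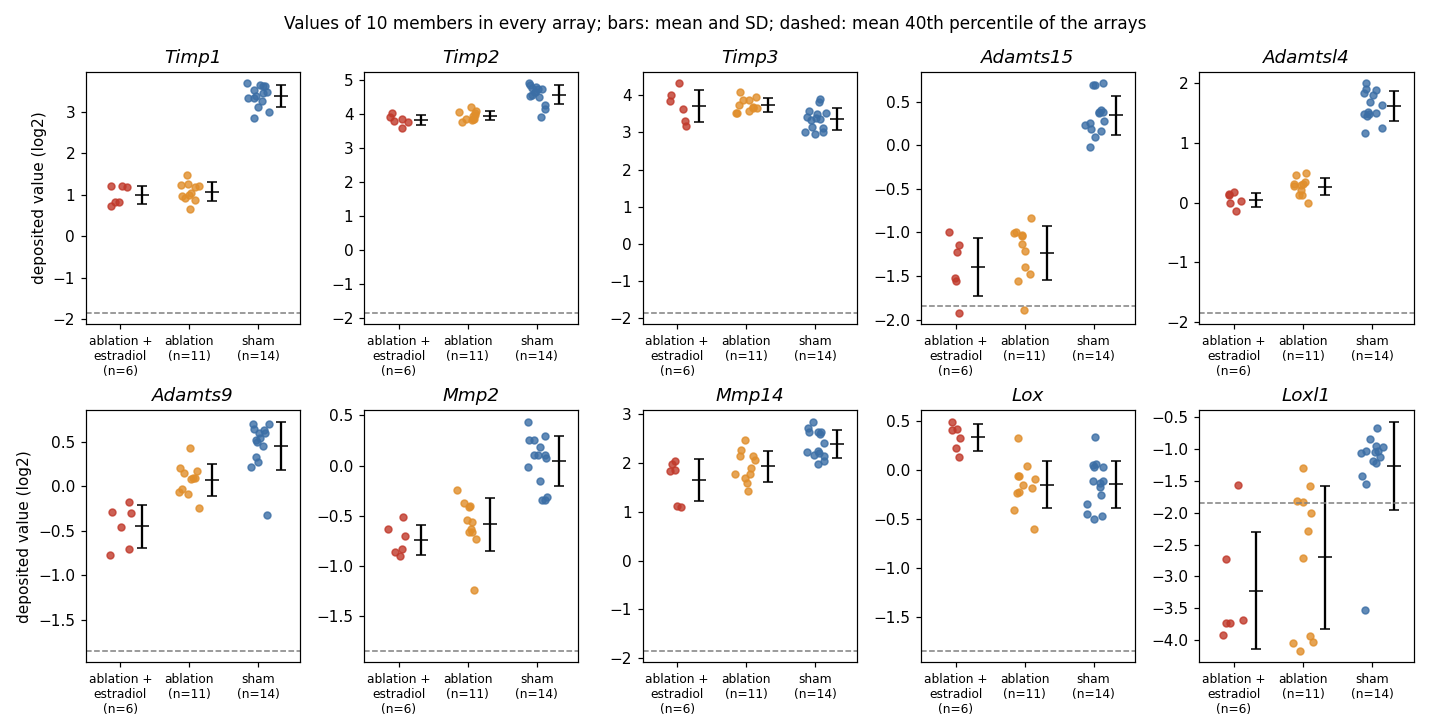
Deposited values (log2, vertical axis) of 10 members in each of the 6 estradiol, 11 ablation and 14 sham arrays, with the mean and SD beside the points and the mean filter level dashed. Timp1, Adamts15 and Adamtsl4 show no overlap between ablation and sham, and in Loxl1 most of the lower values lie below the filter level.

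Among the proteases, Mmp2 is the gelatinase that Mmp14 activates at the cell surface. Mmp2 ranged from -1.24 to -0.24 in ablation arrays (median -0.56) and from -0.34 to 0.44 in sham arrays (median 0.11), and 10 of 11 ablation arrays lay below the lowest sham array. It fell by 0.63 ± 0.10 (1.55-fold, adjusted p = 8.71e-06). Its other probe set, nearer the filter level, was not called (0.16, adjusted p = 0.46). The mean of both probe sets kept the call with a smaller change (-0.24, adjusted p = 0.0313). Mmp14 ranged from 1.41 to 2.46 in ablation arrays (median 1.90) and from 1.98 to 2.84 in sham arrays (median 2.31), and fell by 0.46 ± 0.12 (1.38-fold, adjusted p = 0.00671). The second Mmp14 probe set had a change of -0.06 (adjusted p = 0.796), and the call was lost in the mean of both (-0.26, adjusted p = 0.0852) and with just the 4 shams of irradiated description (-0.48, adjusted p = 0.0894).

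The other 6 Mmp genes tested had changes between -0.27 and 0.05, and none was called. These were Mmp11, a stromelysin, and Mmp15, Mmp16, Mmp17, Mmp23 and Mmp24. One of the 2 other probe sets of Mmp23 was lower in ablation (-0.31, adjusted p = 0.0383), while the other had a change of 0.07 (adjusted p = 0.784).

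Adamts15, a protease that cuts versican and aggrecan, ranged from -1.89 to -0.84 in ablation arrays (median -1.13) and from -0.03 to 0.71 in sham arrays (median 0.32). The groups did not overlap, and it fell by 1.58 ± 0.11 (2.98-fold, adjusted p = 1.42e-13). Adamtsl4, a microfibril-associated protein without protease activity, ranged from -0.0041 to 0.49 in ablation arrays (median 0.30) and from 1.17 to 2.00 in sham arrays (median 1.57). It fell by 1.35 ± 0.08 (2.54-fold, adjusted p = 2.88e-15), again without overlap. With Timp1, these were the 3 members tested whose ablation arrays all lay below the sham arrays, against 1.99% of all genes, and 0 members lay wholly above, against 0.431%.

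Adamts9, another protease of versican and aggrecan, ranged from -0.24 to 0.42 in ablation arrays (median 0.09) and from -0.32 to 0.70 in sham arrays (median 0.53). All 11 ablation arrays lay below the sham median, and the log2 change was -0.38 ± 0.10 (1.3-fold lower, adjusted p = 0.00389). The lowest sham value came from 1 array, sham 12, at -0.32. The second Adamts9 probe set had a change of 0.16 (adjusted p = 0.45), and the call was lost in the mean of both (-0.11, adjusted p = 0.454) and with just the 4 shams of irradiated description (-0.28, adjusted p = 0.266). The 8 other Adamts genes tested had changes from -0.55 to 0.38 and were not called, among them Adamts1 (-0.20, adjusted p = 0.181) and Adamts5 (-0.03, adjusted p = 0.883). Adamts5 is a major aggrecan-cutting protease, as is Adamts4. Adamtsl1 and Adamtsl5, relatives of Adamtsl4, had changes of -0.34 (adjusted p = 0.0706) and -0.23 (adjusted p = 0.194).

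Among the lysyl oxidases, Loxl1, which cross-links elastin, ranged from -4.17 to -1.29 in ablation arrays (median -2.28) and from -3.54 to -0.66 in sham arrays (median -1.05). It exceeded the filter level on 3 of 11 ablation arrays and on 13 of 14 sham arrays. The log2 change was -1.44 ± 0.34 (2.71-fold lower, adjusted p = 0.00215), but -0.61 (adjusted p = 6.95e-06) once all values below the filter level were raised to it. The call was lost with just the 4 shams of irradiated description (-1.60, adjusted p = 0.0512). Loxl2, which acts on collagen of basement membranes, had a change of -0.60 (95% interval -1.17 to -0.03, adjusted p = 0.137). It too passed the filter only through sham, with 1 estradiol, 1 ablation and 9 sham arrays above the level. Lox itself averaged -0.15 ± 0.24 in ablation arrays and -0.15 ± 0.24 in sham arrays (SD, n = 11 and 14), with a 95% interval of the difference from -0.19 to 0.19.

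**Figure D3:**
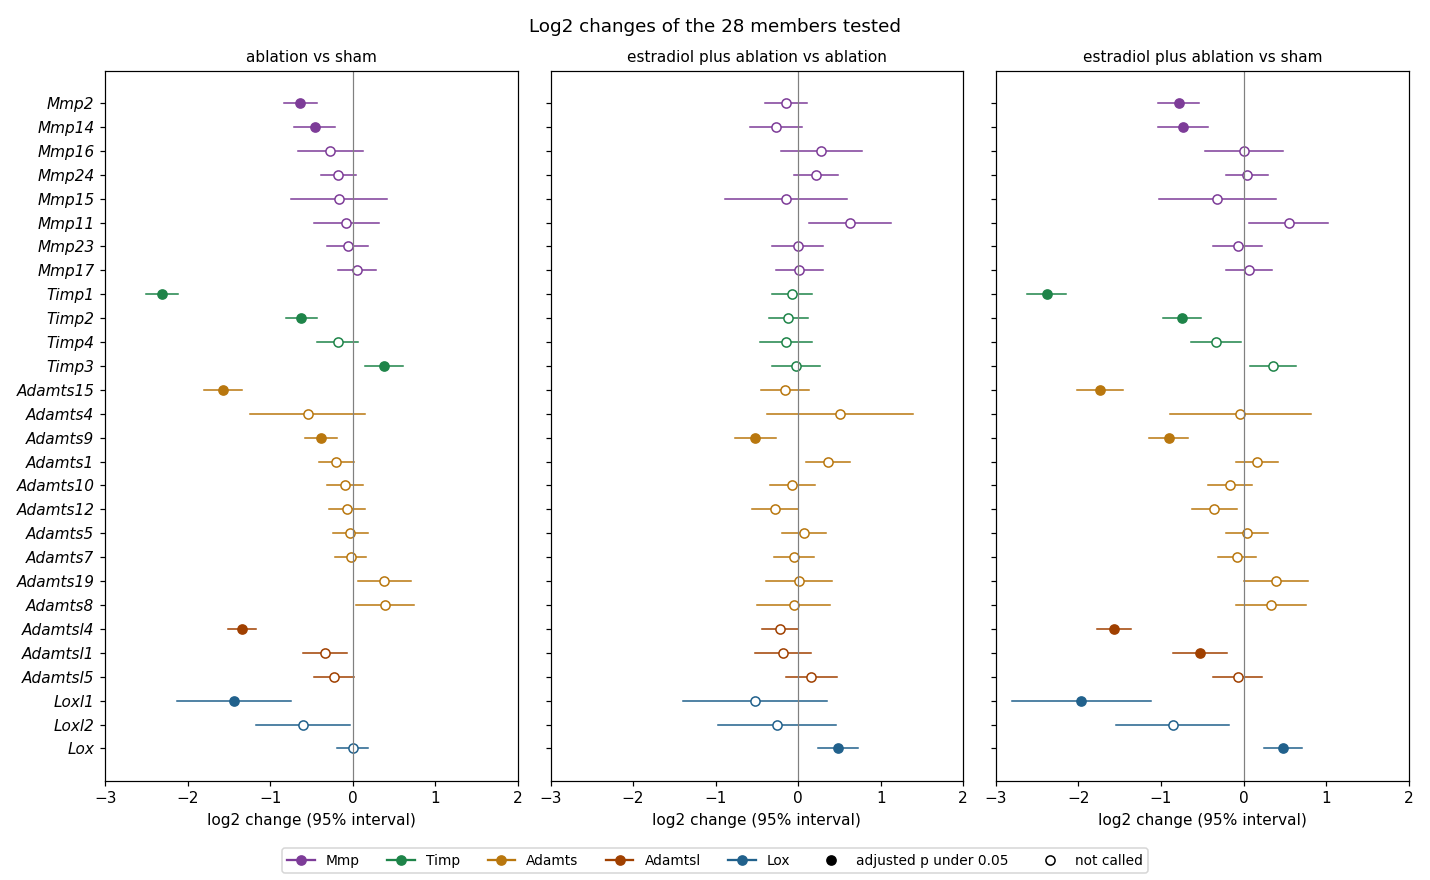
Log2 changes with 95% intervals (horizontal axis) of the 28 members tested, in the 3 comparisons, coloured by family. Filled points have an adjusted p under 0.05. In ablation against sham 8 are filled on the left and Timp3 on the right, and in estradiol plus ablation against ablation only Adamts9 and Lox are filled.

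Estradiol plus ablation against ablation is the comparison the series title concerns. Lox was higher and Adamts9 lower with estradiol, and the other 26 members tested were not called. Thus 1 of 28 was called higher and 1 lower (3.57% each), against 0.729% and 2.73% of all genes. The median change was -0.06 over the members tested and -0.02 over all genes. No member tested had estradiol arrays all beyond the ablation arrays, against 0.228% of genes wholly higher and 0.51% wholly lower.

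Lox, the founding lysyl oxidase, had estradiol values of 0.13, 0.22, 0.32, 0.40, 0.41 and 0.49, against -0.60 to 0.32 in the ablation arrays (median -0.16). All 6 estradiol arrays lay above the ablation median and 3 above the highest ablation array. It rose by 0.48 ± 0.12 (1.39-fold, 6 against 11 arrays, adjusted p = 0.00883). Its second probe set had a similar change, not called on its own (0.42 ± 0.20, adjusted p = 0.27), and the mean of both was called (0.45, adjusted p = 0.042). Without the component extremes the change was 0.42 (adjusted p = 0.0766).

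Adamts9 had estradiol values of -0.77, -0.70, -0.46, -0.30, -0.29 and -0.18, against -0.24 to 0.42 in the ablation arrays (median 0.09). In 5 of 6 estradiol arrays it lay below the lowest ablation array, and it fell by 0.52 ± 0.12 (1.43-fold, adjusted p = 0.00547). Its second probe set, closer to the filter level, had a change of 0.23 (adjusted p = 0.551), so the probe sets disagreed in direction. The call was lost in their mean (-0.15, adjusted p = 0.598) and, narrowly, without the component extremes (-0.51, adjusted p = 0.051).

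Apart from Adamts9, the members lower in ablation than in sham had no called change with estradiol. The intervals below cover only the spread among arrays, since estradiol treatment and the newer deposit cannot be told apart. For Timp1, estradiol arrays ranged from 0.74 to 1.22 (median 1.00) and ablation arrays from 0.65 to 1.48, a difference of -0.08 with a 95% interval from -0.32 to 0.17. For Adamts15 the difference was -0.16 (interval -0.45 to 0.13), for Adamtsl4 -0.22 (-0.43 to -0.0037), for Timp2 -0.12 (-0.36 to 0.11) and for Mmp2 -0.15 (-0.41 to 0.10). The interval for Adamtsl4 leaves out 0, but with adjustment over all probe sets its p was 0.29. For Loxl1 the interval was wide, from -1.40 to 0.35.

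Mmp14 differed between its probe sets here as well. The main one had estradiol values from 1.10 to 2.04 (median 1.84) and ablation values from 1.41 to 2.46 (median 1.90), a change of -0.27 (adjusted p = 0.41). The second was lower with estradiol (-0.60 ± 0.17, adjusted p = 0.0255), and the mean of both was at the edge of a call (-0.43, adjusted p = 0.0524). The 4 uncalled members with the largest changes were Mmp11 at 0.63 (interval 0.13 to 1.13, adjusted p = 0.153), Loxl1 at -0.53, Adamts4 at 0.51 (interval -0.37 to 1.40, adjusted p = 0.621) and Adamts1 at 0.36 (interval 0.10 to 0.63, adjusted p = 0.111). Of these 4, Loxl1 and Adamts4 lay mostly below the filter level. Loxl1 exceeded it on 1 of 6 estradiol and 3 of 11 ablation arrays, and Adamts4 on 2 and 0. With values raised to that level, their changes were -0.06 and -0.02. Timp3 and Timp4 had changes of -0.03 and -0.15, with adjusted p of 0.954 and 0.701.

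**Figure D4:**
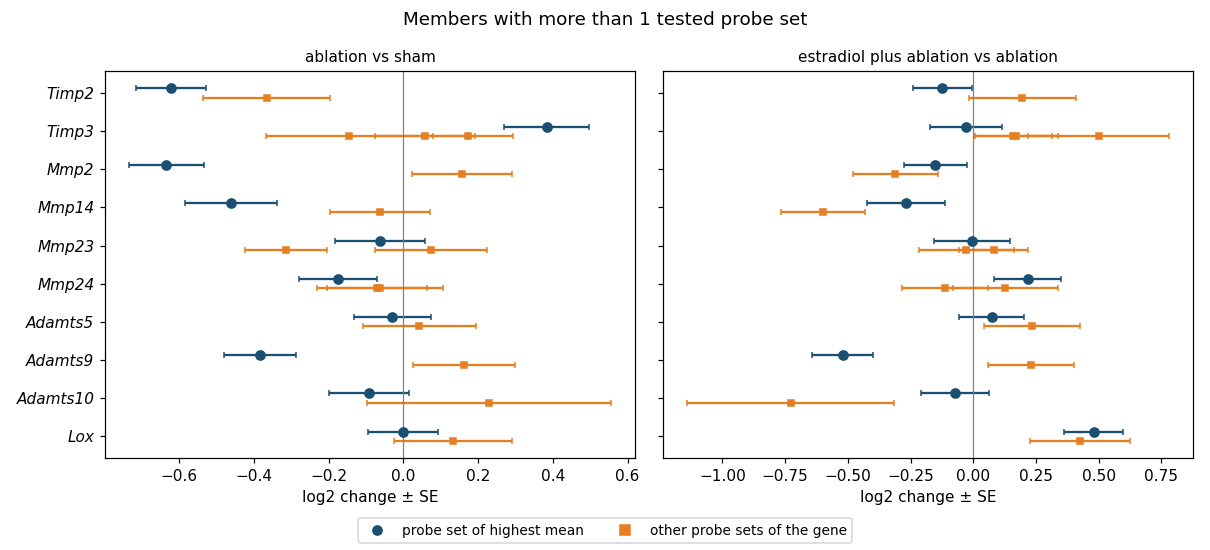
Log2 changes with SE (horizontal axis) of the 10 members that had more than 1 tested probe set, for ablation against sham and estradiol plus ablation against ablation. Circles are the probe set of highest mean and squares the others. The Lox and Timp2 probe sets lie on the same side as their circles in the comparison in which each was called, and the Adamts9 square lies on the opposite side in both comparisons.

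Estradiol plus ablation against sham shares its arrays with the other 2 comparisons, and so adds no independent evidence to either. Here 9 of 28 members were called lower (32.1%) and 1 higher (3.57%), against 11.9% and 5.28% of all genes. The 9 include Loxl1, which passed the filter only through sham. The 8 members lower in ablation against sham were lower here too, and Adamtsl1 was the ninth. Timp1 was 5.22-fold lower (-2.38 ± 0.12, adjusted p = 3.53e-18), Adamts15 3.34-fold lower (-1.74 ± 0.14) and Adamtsl4 2.96-fold lower (-1.56 ± 0.10). The estradiol and sham arrays did not overlap in these 3 genes and in Mmp2 (-0.79 ± 0.12), that is in 4 members lower, against 2.87% of genes, and in 0 higher, against 0.835%. The second Mmp2 probe set was not called here (-0.15, adjusted p = 0.614).

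Adamts9 had estradiol values of -0.77 to -0.18 and sham values of -0.32 to 0.70, a change of -0.90 ± 0.12 (1.87-fold lower, adjusted p = 3.13e-07). In the mean of its probe sets the change was -0.26 (adjusted p = 0.139). Mmp14 was 1.66-fold lower (-0.73 ± 0.15, adjusted p = 0.00054), and its second probe set was lower as well (-0.66, adjusted p = 0.00355). Timp2 was 1.68-fold lower (-0.74 ± 0.11), while its second probe set was not called (-0.17, adjusted p = 0.67). Loxl1, which passed the filter only through sham, was lower by a log2 change of -1.97 ± 0.41, but of -0.68 with values raised to the filter level. The single member called higher was Lox, with estradiol values of 0.13 to 0.49 and sham values of -0.50 to 0.33 (median -0.13), a change of 0.48 ± 0.11 (1.39-fold, adjusted p = 0.00268). Its second probe set was called as well (0.56, adjusted p = 0.0449), whereas with just the 4 shams of irradiated description the first was not (0.45, adjusted p = 0.083).

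Adamtsl1 had a change of -0.52 ± 0.16 against sham (1.44-fold lower, adjusted p = 0.0229). This call was lost without any 1 of estradiol 2 (-0.49, adjusted p = 0.0561), estradiol 5 (-0.45, adjusted p = 0.0794) or estradiol 6 (-0.45, adjusted p = 0.0858). It was also lost with the 10 shams of control description (-0.47, adjusted p = 0.071) and without the component extremes (-0.50, adjusted p = 0.12). Timp3 was at 0.36 (adjusted p = 0.081) and passed without estradiol 3 (0.47, adjusted p = 0.0218), estradiol 5 (0.44, adjusted p = 0.0372) or sham 10 (0.40, adjusted p = 0.0398).

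Other genes of matrix turnover were taken from 7 lists, and their counts stand against the 12.8% of all genes called lower and 9.24% called higher in ablation against sham. Named genes are those with the smallest p in their list, which need not have the largest change. With ablation against sham, 11 of 14 substrate and elastic fibre genes tested were lower and 0 higher, with a median change of -0.48. Col3a1 and Col1a2, chains of fibrillar collagen, had changes of -1.58 (adjusted p = 1.94e-18) and -1.97 (adjusted p = 1.13e-17). Procollagen processing had 8 of 15 lower and 1 higher. Pcolce, which enhances removal of the procollagen C-propeptide, fell 3.47-fold (SE 0.11 on the log2 scale, adjusted p = 5.05e-16), and P4ha2, a subunit of prolyl hydroxylase, was the higher one (0.71, adjusted p = 7.14e-10). Other matrix-degrading proteases had 6 of 10 lower and 0 higher, with the smallest p for Fap, a serine protease of activated fibroblasts (-1.15, adjusted p = 6.92e-13), and Htra1, a secreted serine protease (-0.61, adjusted p = 8.55e-07).

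The list of further protease regulators had 5 of 11 lower and 0 higher, with the smallest p for A2m, a broad protease inhibitor (-0.38, adjusted p = 0.00118), and Bsg, an inducer of matrix metalloproteinases (-0.44, adjusted p = 0.0157). Membrane Adam proteases had 2 of 7 lower and 0 higher, Adam15 (-0.45) and Adam19 (-0.42), on few genes. Plasminogen activation was split, with 2 of 6 higher and 2 lower. Plau, the urokinase that turns plasminogen into plasmin, rose by 0.63 (adjusted p = 2.61e-07), and Anxa2, a surface receptor for plasminogen, fell by 0.45 (adjusted p = 6.03e-05).

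With estradiol plus ablation against ablation, 4 genes of the 7 lists were called, all lower. They were 1 of 6 plasminogen genes tested, 1 of 11 regulators, 1 of 15 procollagen processing genes and 1 of 14 substrates. Of 10 other matrix-degrading proteases, 7 Adam genes and 6 inducers of matrix genes tested, 0 were called. Over all genes, 2.73% were called lower. Called were Serpina5, a serpin that inhibits urokinase (-0.64, adjusted p = 0.000644), and Lrp1, an endocytic receptor that clears proteases (-0.38, adjusted p = 0.0356). P4ha2 (-0.30, adjusted p = 0.0372) and Col3a1 (-0.40, adjusted p = 0.00679) were called as well. With estradiol plus ablation against sham, 9 of 14 substrates, 7 of 10 other matrix-degrading proteases, 4 of 15 procollagen processing genes, 3 of 11 regulators, 2 of 7 Adam genes and 2 of 6 plasminogen genes were lower, against 11.9% of all genes. Higher there were 1 procollagen processing gene, 2 plasminogen genes and 1 inducer of matrix genes, against 5.28% of all genes. The gene with the smallest p in each of these 6 lists was Col3a1 (-1.98), Pcolce (3.99-fold lower), Fap (-0.92), Lrp1 (-0.65), Adam19 (-0.86) and Serpina5 (-0.80).

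**Figure D5:**
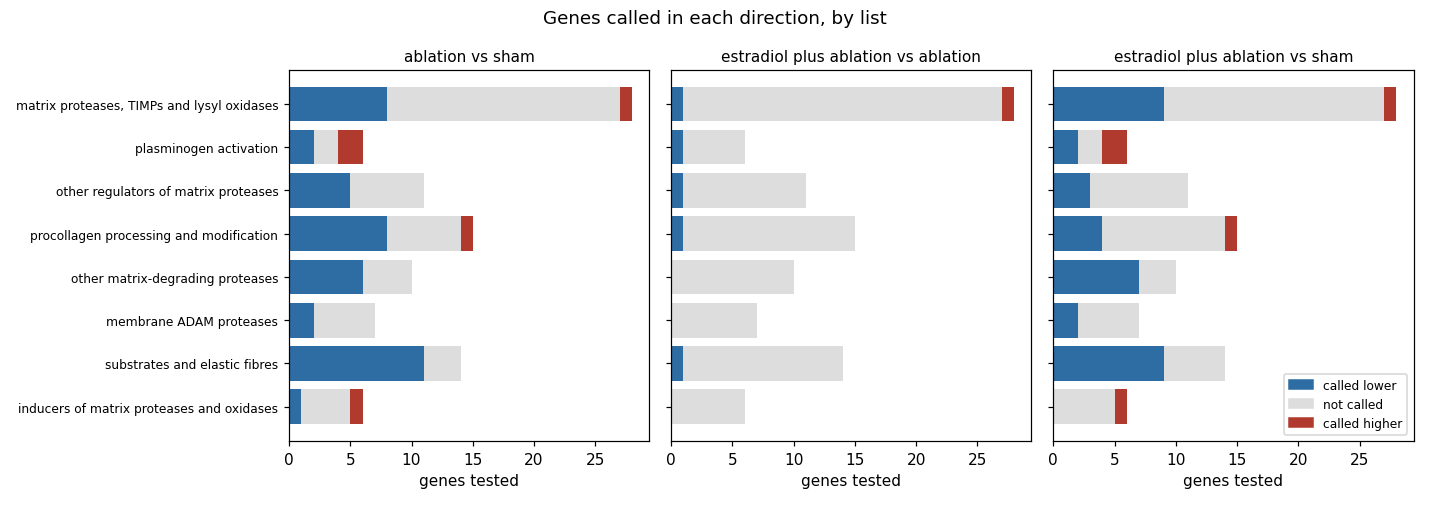
Number of genes tested (horizontal axis) in the 41-member set and in each of 7 other matrix lists, with genes called lower in blue, called higher in red and not called in grey, for the 3 comparisons. Blue covers 8 of 28 members and 11 of 14 substrates in ablation against sham, and 1 gene or none of every set in estradiol plus ablation against ablation.

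Marker genes of several cell types moved with ablation against sham, where 12.8% of all genes were called lower and 9.24% higher. Of 6 fibroblast markers, 4 were lower in ablation. Sums of signal, taken off the log scale, cover every marker of a list with a probe set, called or not. For the fibroblast list this sum was 23.6 to 31.2 in ablation arrays and 35.4 to 54.5 in sham arrays. Of 8 macrophage markers 6 were lower (sums 11.9 to 16.5 and 15.9 to 24.8), and of 6 peritubular myoid and smooth muscle markers 4 were lower (sums 8.92 to 15.4 and 11.5 to 23.2). The 6 markers of Leydig cells divided into 4 lower and 2 higher (sums 45.9 to 62.2 and 53.6 to 111.4), and of 6 Sertoli cell markers tested 3 were higher (sums 117 to 154 and 59.9 to 161). All markers of the fibroblast, macrophage, myoid and Leydig lists passed the filter in these testes, and of the Sertoli list Amh and Rhox5 did not. Of 6 endothelial markers 2 were lower, and of 6 spermatogonial markers 4 were higher and 1 lower. The fibroblast list shares Col1a1 and Col3a1 with the substrates above. The part of these cell types in the changes of the matrix genes was not tested. With estradiol plus ablation against ablation, 0.729% of all genes were called higher and 2.73% lower. There 1 of 6 fibroblast markers was higher and 2 were lower, and 3 of 6 Leydig markers were lower. Of the 8 macrophage, 6 endothelial, 6 myoid and 6 Sertoli markers tested, 0 were called. Of 6 spermatogonial markers tested, 1 was called in that comparison, Ret (higher by 0.81, adjusted p = 0.0237). Of 3 spermatid markers tested, 1 was called, Prm1 (-4.59, adjusted p = 0.0309), with an SD of 2.83 in the ablation arrays. Tnp1 (-3.15, adjusted p = 0.206) and Acrv1 (0.36, adjusted p = 0.421) were not called. With estradiol plus ablation against sham, 11.9% of all genes were called lower and 5.28% higher. There 4 of 6 fibroblast, 3 of 8 macrophage, 4 of 6 myoid and 4 of 6 Leydig markers were lower. In that comparison 1 of 6 fibroblast, 2 of 6 Leydig, 3 of 6 Sertoli and 4 of 6 spermatogonial markers were higher. Of the 6 endothelial and 3 spermatid markers tested, 0 were called.

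The 4 sham arrays described as irradiated and the 10 described as control were also compared. With limma, 0 of 28 members and 0% of all genes were called in either direction, and 0 members had an unadjusted p under 0.05, against 2.87% of all genes. Member differences (irradiated minus control description) lay between -0.27 and 0.66.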

How the data were processed

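Gene expression was measured on Affymetrix arrays of biotin-labelled RNA. The deposited log2 values are MAS5 signals per the submitters' processing notes; the version, scaling reference and log base are not given in the sources used here. Each array spans 15.8 to 19.3 units, and the base is read as 2. The newer estradiol arrays carry 2 decimals. No renormalization or pseudocount was applied. Of 31099 probe sets, 57 controls were left out, and 21269 of the remaining 31042 exceeded the 40th percentile of their array on at least 6 arrays. Gene names are those of the platform annotation; 436 probe sets with several symbols and 9780 with none were not named.

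Groups followed the titles. Differences were tested with limma 3.58.1 in R 4.3.3 in 1 fit of 31 arrays with a variance trend, 2-sided, with Benjamini and Hochberg adjustment over all kept probe sets; intervals are 95% and unadjusted. The number of arrays limits the precision. The pipeline was tested on simulated data. No sets were tested. The members and lists were chosen with earlier results of these data known. Members called in any comparison and a fixed set were named; of the other matrix genes, up to 2 called genes per list and comparison. Alternatives were filters, scaling, a floor, groups fitted, variance trend, replicate block, sham description, probe set averaging, component ends and leaving out each array.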

Additional observations from a re-analysis of the deposited data

Results flagged for a closer look

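In the estradiol group of 6 arrays, 2 of 41 members had 1 array far from the others by Dixon's test at the 95% level, which chance alone flags in about 1 in 20 groups. Adamts1 was at 0.21 in estradiol 5, while the other 5 arrays lay between 0.90 and 1.26. Without estradiol 5, Adamts1 passed in estradiol plus ablation against ablation (0.50, adjusted p = 0.0139). Mmp13 was at -7.10 in estradiol 2, while the others lay between -4.29 and -3.42, all below the filter level.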

How the results depend on the processing

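Counts of called members were within 1.5 times of the reported ones except as follows. In ablation against sham, 0 members were higher with just the 4 shams of irradiated description, with all kept probe sets of a gene averaged and without the component extremes, and 5 were lower with the 4 sham arrays. In estradiol plus ablation against ablation, 2 were higher with the replicate block, 0 were lower with probe sets averaged, and 0 were higher and 0 lower without the component extremes. Against sham, 2 were higher with estradiol under quantile normalization, the floor or the replicate block, and 0 with the 4 sham arrays. Leaving out each array gave 1 member higher and 8 to 10 lower, 1 to 2 higher and 1 lower, and 1 to 2 higher and 8 to 10 lower in the 3 comparisons, in the order used above. Calls gained in ablation against sham were Adamts4 (-0.83, adjusted p = 0.00858) and Adamtsl1 (-0.42, adjusted p = 0.00745) without sham 3, and Adamtsl1 without ablation 5 (-0.38, adjusted p = 0.0408). Adamts4 exceeded the filter level on 0 of 11 ablation and 5 of 14 sham arrays. With all arrays and values raised to that level, its change was -0.10 (limma adjusted p = 0.416). Gained in estradiol against sham were Adamts12 without sham 4 (-0.39, adjusted p = 0.0344) or estradiol 5 (-0.44, adjusted p = 0.0263) and Timp4 without estradiol 5 (-0.45, adjusted p = 0.0406). Timp3 passed there under quantile normalization (0.47, adjusted p = 0.00282), and Adamtsl1 was lost with the replicate block (-0.43, adjusted p = 0.174). Directions turned only in changes that were not called. In ablation against sham Lox was at 0.025 (quantile), 0.0079 (10 sham arrays), 0.066 (probe sets averaged) and 0.0090 (component extremes), and Adamts5 at 0.030 (4 sham arrays) and 0.0066 (averaged). In estradiol plus ablation against ablation Timp3 was at 0.039 (quantile), 0.017 (array medians), 0.029 (replicate block) and 0.20 (averaged), and Timp2 at 0.036 (averaged). With 1 array left out, Lox ranged from -0.049 to 0.043 and Adamts5 from -0.073 to 0.015 in ablation against sham, and Timp3 from -0.15 to 0.082 and Timp4 from -0.27 to 0.020 in estradiol plus ablation against ablation. The cause of these shifts was not tested, beyond the smaller number of arrays where arrays were left out. Over all probe sets, the share of higher among called ones was 24% under quantile normalization and 20.1% under median centring, against 10.7% as reported, for estradiol plus ablation against ablation, and 47.2% and 36.9%, against 28.5%, for estradiol plus ablation against sham. Called probe sets fell to 853 higher and 1492 lower with the 4 shams, against 1947 and 2181, in ablation against sham, and to 57 higher and 603 lower without the component extremes, against 126 and 1047, in estradiol plus ablation against ablation. The labels do not say that equal replicate numbers mark paired animals. Deviations of same-numbered arrays correlated at -0.086 to 0.047, -0.18 to 0.059 and -0.011 to 0.38 in the 3 comparisons, over 11, 6 and 6 pairs. In estradiol plus ablation against sham 3 of 6 pairs were over 0.1 and 3 correlated best with their own number, a hint from the data and not the design, and in the other comparisons 0 were. Signal near or below the filter level limits what can be said of the 11 Mmp genes whose mean lay below that level.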

Other observations

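A list of inducers of matrix proteases and oxidases had 6 genes tested. Ccn2, the connective tissue growth factor, had means of 1.52 in estradiol arrays, 1.21 in ablation arrays and 0.08 in sham arrays. It was higher in ablation than in sham (1.13, adjusted p = 9.17e-11) and also with estradiol plus ablation than in sham (1.43, adjusted p = 3.95e-11). In ablation against sham, Tgfb2, a transforming growth factor, was lower (-0.65, adjusted p = 0.0261). The cytokine genes Il1b, Il6 and Tnf and the growth factor gene Tgfb1 did not pass the filter.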
